A study of Mus musculus with 99 samples.

Results

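The genes described here are 9 unconventional myosins of hair cells: Myo7a, Myo6, Myo15 (the gene also written Myo15a), Myo3a, Myo3b, Myo1c, Myo1d, Myo5a and Myo10. They were taken from the count table by symbol, and all 9 were among its 55291 symbols, of which 26782 had 1 or more reads in any cell. The 99 libraries are full-length cDNA of single cochlear cells, each picked by hand for its red fluorescence; the mice were C57BL/6. The first group was 32 wild-type outer hair cells (OHCs) at postnatal day 30 with the genotype Slc26a5-CreER/+; Ai9/+, in which an inducible Cre under the control of the OHC gene Slc26a5 switches on the tdTomato reporter Ai9. The second group was 67 cells at postnatal day 42 with the genotype Slc26a5-CreER/+; Rosa26Tbx2/+, in which the same Cre switches on the transcription factor Tbx2 in OHCs; the labels call them converted inner hair cells (cIHCs). Every mouse thus carried 1 Slc26a5-CreER allele. Age and genotype differ together between the groups and cannot be told apart, and no title names an endogenous inner hair cell. The protocol text, shared by every cell, speaks instead of endogenous inner hair cells and iOHCs; the titles and genotypes were followed.

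Unconventional myosins are actin motors that do not form filaments, in contrast to the filament-forming myosins of muscle, and several carry cargo. Hair cells build their mechanosensitive bundle from actin-filled stereocilia, and several of these motors are deafness genes: MYO7A holds the tip-link complex, MYO15A delivers the elongation complex to stereocilia tips, class III myosins carry espins to the tips, and MYO6 walks the other way, toward the base and the cell body. Class I myosins link actin to membranes, MYO5A carries vesicles along cortical actin, and MYO10 is a motor of filopodia.

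No animal is named for any cell, so each group stood as 1 sample: the differences below have no replicates behind them and were not tested. Levels are given as CPM, the reads of a gene scaled to the total of the cell or of the summed group, and differences as log2 ratios of the summed levels, cIHC over OHC. Intervals are exact and 95%. Those of ratios cover counting error only, since the reads are amplified copies and carry no molecular identifiers. Those of shares of cells take each cell as an independent draw. With no animal named, they describe these cells and do not cover spread between animals. Total counts ran from 5656512 to 9287413 per OHC and from 4677682 to 13792672 per cIHC, and genes with reads from 4769 to 8567 and from 7081 to 11719. Tbx2 held 3 counts in all OHCs together and had 112.7 to 2643 CPM in the 67 cIHCs. The hair cell markers summed to 6928 CPM in the OHCs against 6248 CPM in cIHCs, but Otof, which is on the inner hair cell list too, gave 542.8 and 2956 CPM of that. Without it the sums were 6386 and 3292 CPM. Gfi1 (log2 ratio -2.51), Pvalb (-2.53), Pou4f3 (-1.04) and Lhfpl5 (-1.01) were each at least 2-fold lower in cIHCs. Tmc1 (0.05) and Loxhd1 (-0.39), from the same list, lay within 2-fold. Atoh1, without reads in any OHC, held only 152 counts over all cIHCs. The OHC markers summed to 52111 and 510.6 CPM, and the inner hair cell markers to 620.7 and 5757 CPM, with Slc7a14 and Rprm at 0 in OHCs. Supporting cell markers summed to 32.2 CPM in OHCs, with Slc1a3 and Lfng at 0, and to 29.8 CPM in cIHCs, with Epyc and Fabp7 at 0; the highest cells had 896.5 and 874.8 CPM. Glial markers summed to 14.3 and 8.19 CPM, fibrocyte markers to 17.9 and 22.3 CPM, and macrophage and blood markers to 9.46 and 53.8 CPM. Of the last sum C1qb alone gave 48.2 CPM, with C1qa and Cx3cr1 at 0 in both groups and Csf1r at 0.207 and 0.153 CPM. Neuronal markers summed to 255.6 and 527.4 CPM, with Th at 0. Most came from Snap25 (182.4 and 216.9 CPM), Nefm (19.2 and 176.1 CPM) and Nefl (53.9 and 123.6 CPM). Nefl and Nefm share 1108 exon bases on opposite strands, 32.8% of Nefl and 19.2% of Nefm, and whether the counting used strand is not stated. The part of the neuronal markers in the results was not tested. Xist reads marked 4 OHCs and 55 cIHCs and Y-linked reads 24 OHCs and 12 cIHCs, so the sex of the cells also differed between the groups.

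The start regions of Myo15 and Myo3a are shown because, of the members above 10 CPM, these were the pair that differed most between the groups, in opposite directions. Both are the 250 bases before the RefSeq start on the plus strand of GRCm38.p6, at chr11:60469089-60469338 for Myo15 and chr2:22227253-22227502 for Myo3a; the first annotated exon begins at the next base. Capitals mark E-boxes of the letters CAGGTG or CAGCTG, the kind of site bound by basic helix-loop-helix factors.
Myo15: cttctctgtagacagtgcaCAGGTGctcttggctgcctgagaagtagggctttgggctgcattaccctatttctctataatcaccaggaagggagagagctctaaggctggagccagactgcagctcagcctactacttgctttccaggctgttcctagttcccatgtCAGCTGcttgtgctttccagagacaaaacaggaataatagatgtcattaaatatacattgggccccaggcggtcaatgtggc
Myo3a: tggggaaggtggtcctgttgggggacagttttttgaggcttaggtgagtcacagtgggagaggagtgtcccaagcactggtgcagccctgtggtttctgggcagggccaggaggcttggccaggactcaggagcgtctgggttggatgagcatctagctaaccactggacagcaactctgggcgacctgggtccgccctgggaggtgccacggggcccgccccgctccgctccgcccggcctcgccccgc
The Myo15 window held CAGGTG starting 231 bases and CAGCTG starting 82 bases before the start, and the Myo3a window held neither. On either strand, CAGGTG was in 17.2% and CAGCTG in 13% of 32851 RefSeq windows of this length, and the motifs do not overlap each other here. Of the 12 windows at starts of members, 1 held CAGGTG and 1 held CAGCTG, in both cases that of Myo15. The T-box core GGTGTGA, the kind of site bound by TBX2 and its relatives, was in 3.33% of all windows and in neither printed sequence; of the 12 windows of the 8 members with an entry, 1 at a Myo7a start held it. A match of letters is no evidence of binding, and its absence covers these windows only.

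Across the 9 members, Myo15 was the only one at least 2-fold lower in cIHCs, with a log2 ratio of -2.60, while Myo3a, Myo3b and Myo5a were at least 2-fold higher. Myo7a (0.31), Myo6 (-0.46) and Myo1d (-0.36) lay within 2-fold, as did Myo1c and Myo10, whose OHC sums rested on 1 cell each. Over all 23306 genes with a ratio, 42.6% were at least 2-fold higher and 18.8% lower in cIHCs. Only 5 members (Myo7a, Myo6, Myo15, Myo3a and Myo1d) reached 10 CPM in 1 or both groups; 1 of these was higher and 1 lower, beside 26.3% and 14.3% of the 10041 genes at that level. The median ratio was -0.36 over these 5 members, beside 0.25 over the 10041 genes, and 0.21 over all 9 members, beside 0.58 over the 23306 genes with a ratio. The members did not move as a group, and the results below are about single motors.

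**Figure D1:**
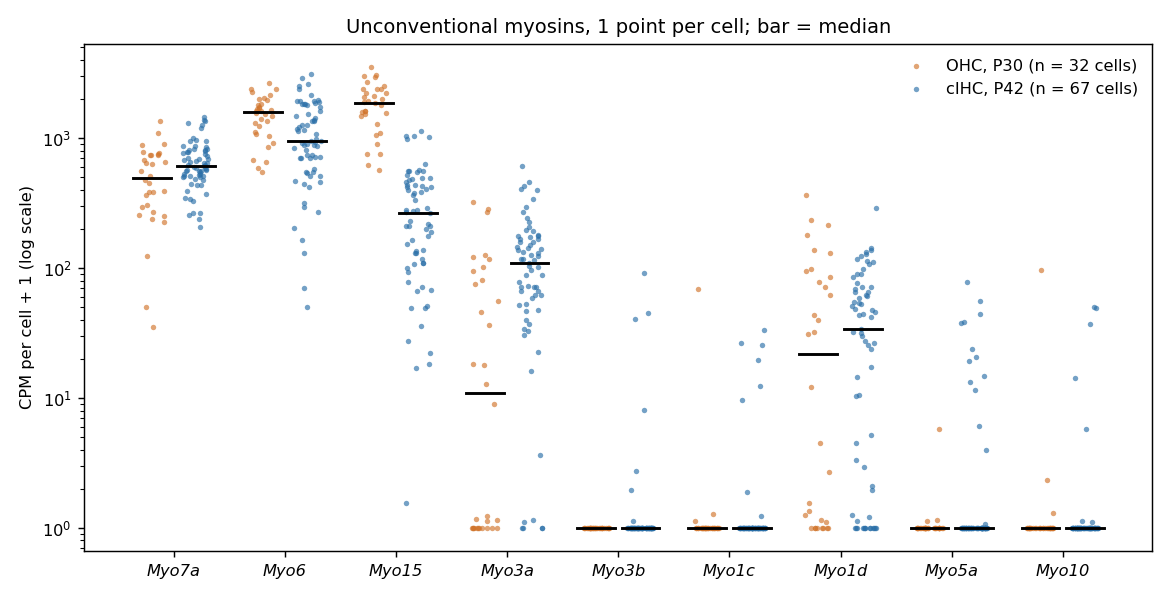
Level of each myosin in each cell (CPM + 1, log scale; 32 OHCs in orange, 67 cIHCs in blue; the bar is the median). The Myo15 points of cIHCs lie almost wholly below those of OHCs, the Myo7a and Myo6 points overlap widely, and Myo3b, Myo1c, Myo5a and Myo10 lie at 0 in most cells of both groups.

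MYO15A carries whirlin, EPS8 and their partners to the tips of the stereocilia, where the bundle's rows gain their length. Myo15 (chr11:60469339-60528369, plus strand) had reads in all 99 cells. In OHCs it ranged from 569.2 to 3529 CPM with a median of 1875 CPM, and in cIHCs from 0.548 to 1137 CPM with a median of 262.7 CPM. The ranges overlapped only at their edges: 60 of 67 cIHCs lay below the lowest OHC, all 67 lay below the OHC median, and 25 of 32 OHCs lay above the highest cIHC. The summed levels were 1859 CPM and 306.8 CPM, a 6.06-fold lower level in cIHCs (log2 ratio -2.60, interval -2.61 to -2.59). In 1.40% of the 2144 pairs of 1 cIHC and 1 OHC the cIHC was higher. Of the 10041 genes at 10 CPM or more, 442 (4.40%) had a ratio at or below that of Myo15. The ratio stayed between -2.84 and -2.35 under all 12 other settings tried, among them only cells with Xist reads (-2.72) and only cells with Y-linked reads (-2.44). The spread between cells was wider in cIHCs, with a coefficient of variation of 0.855, against 0.408 in OHCs.

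The 7 cIHCs inside the OHC range of Myo15 had 572.4 to 1137 CPM of it. They had no reads of Slc26a5, the gene of the OHC motor protein prestin, and 134.0 to 611.1 CPM of Tbx2. Their level of Ocm, the calcium buffer oncomodulin of OHCs, went from 0 to 2416 CPM, so they were not alike in that marker. At the other end, the cIHC with the lowest Myo15 level, 0.548 CPM, had 769.7 CPM of Myo7a but only 128.5 CPM of Myo6. That cell also had 380.3 CPM of Otof, the synaptic calcium sensor otoferlin, a hair cell marker sum of 930.1 CPM and 169.2 CPM of supporting cell markers; the part of these in its Myo15 level was not tested. The next lowest cIHC had 15.97 CPM.

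MYO6 moves toward the pointed end of actin and sits at the taper of the stereocilia, in the cuticular plate and near synaptic vesicles. Myo6 (chr9:80165031-80311729, plus strand) ranged from 550.9 to 2668 CPM in OHCs, with a median of 1587 CPM, and from 49.3 to 3107 CPM in cIHCs, with a median of 955.0 CPM. The cIHC range enclosed that of OHCs: 16 of 67 cIHCs lay below the lowest OHC and 2 above the highest. The summed levels were 1538 and 1117 CPM (log2 ratio -0.46, interval -0.47 to -0.46), and the cIHC was higher in 32.0% of pairs. The coefficient of variation was 0.628 in cIHCs and 0.364 in OHCs. The ratio was negative under all 12 other settings, from -0.95 in cells with Y-linked reads to -0.38 in thinned cells, and stayed within 2-fold.

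MYO7A anchors the upper end of the tip link and pulls on it. Myo7a (chr7:98051060-98119524, minus strand) ranged from 34.2 to 1344 CPM in OHCs, with a median of 493.7 CPM, and from 207.0 to 1449 CPM in cIHCs, with a median of 610.3 CPM. The groups overlapped almost wholly: 3 cIHCs lay above the highest OHC and 3 OHCs below the lowest cIHC, while 52 of 67 cIHCs exceeded the OHC median. The summed levels of 529.6 and 656.8 CPM gave a log2 ratio of 0.31 (interval 0.30 to 0.32), close to the median of all genes. The cIHC was higher in 62.8% of pairs. Unlike Myo15 and Myo6, Myo7a had the smaller coefficient of variation in cIHCs, 0.422 against 0.574. Its ratio ran from 0.11 to 0.66 over the other settings.

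The class III myosins carry a kinase domain on the motor and bring espins to stereocilia tips. Myo3a (chr2:22227503-22618252, plus strand) ranged from 0 to 323.4 CPM in OHCs, with a median of 9.93 CPM, and from 0 to 610.4 CPM in cIHCs, with a median of 108.6 CPM. The ranges overlapped, but 60 of 67 cIHCs lay above the OHC median and 6 above the highest OHC. Reads were found in 21 of 32 OHCs (65.6%, Clopper-Pearson interval 46.8% to 81.4%) and in 63 of 67 cIHCs (94.0%, 85.4% to 98.3%). After each cell was thinned to 5770000 reads the shares were 65.5% and 92.4%. Genes of 10 to 100 CPM in general had reads in a median of 43.8% of OHCs and 67.2% of cIHCs. For genes of 100 to 1000 CPM, the band of Myo3a in cIHCs, the medians were 93.8% and 100%. Detection was thus wider in cIHCs beyond Myo3a as well. The summed levels of 56.5 and 128.4 CPM gave a 2.27-fold higher level in cIHCs (log2 ratio 1.19, interval 1.16 to 1.21), and the cIHC was higher in 74.3% of pairs.

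The 2-fold size of the Myo3a difference depended on the setting; its sign was the same under all 12. The ratio was 0.99 with TMM factors and 0.98 with median-of-ratios scaling, which lower the median of all genes by 0.19 and 0.20, and 0.88 without the cells with the fewest genes. It was 0.36 among cells with Xist reads (4 OHCs, 55 cIHCs) and 0.83 among cells with Y-linked reads (24 and 12), but 3.45 between the medians of single cells. The median of all genes at 10 CPM or more was 0.64, 0.15 and 0.77 in these settings. The highest OHC, at 323.4 CPM, was 1 of the 4 OHCs with Xist reads and held 2026 of their 2980 Myo3a counts. That cell also had the highest supporting cell sum of the OHCs, 896.5 CPM, with Epyc at 772.0 CPM. Of the exons of Epyc, 40.65% are shared with Gm10754 on the other strand. The part of such RNA was not tested. Without the 9 OHCs and 27 cIHCs that had 100 CPM or more of supporting cell, glial, fibrocyte, or macrophage and blood markers, the ratio was 1.64. Of those 27 cIHCs, 10 would have been left out had C1qb not been counted.

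Myo3b (chr2:70039126-70429198, plus strand), the other class III myosin, was without reads in all 32 OHCs; a count of 0 of 32 leaves room for up to 9.38% of cells having a read (3 of 32; the Clopper-Pearson upper limit is 10.9%). It had reads in 7 of 67 cIHCs (10.4%, interval 4.30% to 20.3%), with a highest level of 90.5 CPM and 3 cells at 10 CPM or more. These 7 cells held 1447 counts, a summed level of 2.66 CPM, and a single cell held 48.03% of them. Against a floor of 3 counts over all OHCs, the summed level was 214.6-fold higher in cIHCs (log2 ratio 7.75, a bound that holds for that floor). The exact interval for counting error began lower, at 7.45. The bound was 6.77 without the highest cell and 3.36 among cells with Xist reads. In the other 60 cIHCs Myo3b was at 0 as in OHCs. Of its exons, 70 bases are shared with Gm13631 on the same strand in GENCODE M21, so some reads could belong to either.

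MYO1D and MYO1C are short-tailed motors at membranes, and MYO1C was named as the adaptation motor of vestibular hair cells. Myo1d (chr11:80482126-80780025, minus strand) ranged from 0 to 367.5 CPM in OHCs, with a median of 20.8 CPM, and from 0 to 289.2 CPM in cIHCs, with a median of 33.1 CPM. The groups overlapped throughout: 24 of 32 OHCs and 54 of 67 cIHCs had reads, and the cIHC was higher in 49.5% of pairs. The summed levels, 59.8 and 46.7 CPM (log2 ratio -0.36, interval -0.39 to -0.33), put OHCs above, whereas the medians of single cells put cIHCs above (0.67). The sign also turned among cells with Y-linked reads (0.27).

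Myo1c (chr11:75650504-75673910, plus strand) had reads in 3 of 32 OHCs and 8 of 67 cIHCs. The highest levels were 67.7 and 32.2 CPM, and the medians were 0. Of the 386 counts in OHCs, 383 (99.2%) came from 1 cell, and that cell also had 83.1 CPM of glial and 67.0 CPM of macrophage and blood markers, whose part was not tested. The summed levels of 1.59 and 1.85 CPM gave a log2 ratio of 0.21 (interval 0.04 to 0.39). With the highest cell of either group left out it was 6.89 (interval 5.34 to 9.17), from 3 OHC counts, so 1 OHC decided the ratio.

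MYO5A carries organelles and vesicles and MYO10 reaches the tips of filopodia. Myo5a (chr9:75071015-75223688, plus strand) had reads in 3 of 32 OHCs and 14 of 67 cIHCs (20.9%, interval 11.9% to 32.6%). Its highest levels were 4.77 and 76.9 CPM, and 12 cIHCs lay above the highest OHC while 53 were at 0. The summed levels of 0.120 and 5.49 CPM gave a log2 ratio of 5.52 (interval 4.99 to 6.10). Of the 29 OHC counts, 27 lay in the same OHC that held the Myo1c counts; leaving out the highest cell of either group gave 9.05 (interval 7.19 to 12.09), from 2 OHC counts. Of the 14 cIHCs with reads, 7 had 100 CPM or more of supporting cell, glial, fibrocyte, or macrophage and blood markers and held 2105 of the 2984 counts. Most of these 7 passed through the macrophage and blood sum, at 156.6 to 336.9 CPM. Of all 27 such cIHCs, 10 would remain had C1qb not been counted. Without all such cells of both groups the ratio was 7.94 (interval 6.09 to 10.99), again from 2 OHC counts. Of the 14 cIHCs with Myo5a reads, 13 had Xist reads, and among cells with Y-linked reads the ratio was 1.37.

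Myo10 (chr15:25622525-25813673, plus strand) had reads in 3 of 32 OHCs and 7 of 67 cIHCs, with highest levels of 95.5 and 49.0 CPM. Of the 563 counts in OHCs, 550 (97.7%) came from 1 cell. The summed levels of 2.33 and 2.17 CPM gave a log2 ratio of -0.10 (interval -0.24 to 0.05), and the sign turned, to 4.59, when the highest cell of either group was left out (interval 3.81 to 5.51). Among genes of 1 to 10 CPM, reads were found in a median of 9.38% of OHCs and 14.9% of cIHCs, and the shares of Myo1c (11.9%), Myo3b (10.4%) and Myo10 (10.4%) in cIHCs lay below that median while the share of Myo5a lay above it.

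**Figure D2:**
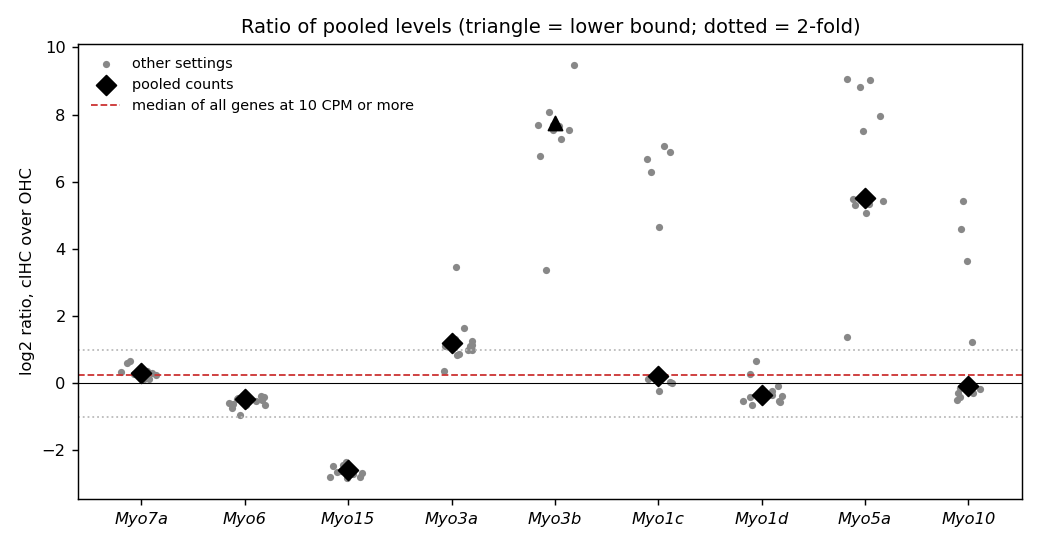
Log2 ratio of each myosin, cIHC over OHC, from summed counts (diamond; triangle where the OHC sum was 0 and the value is a lower bound) and under the other settings (grey points; those of Myo3b, and 1 of Myo10 at 3.64, are bounds too). Myo15 stayed between -2.84 and -2.35 and Myo7a between 0.11 and 0.66, while the sparse genes Myo1c, Myo5a and Myo10 moved by several log2 units.

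Levels of different genes were compared per length, as counts per kilobase of annotated exon scaled in the same way (RPKM) of the summed groups. In OHCs Myo15 stood first at 145.7, followed by Myo6 at 127.4, Myo7a at 61.8, Myo1d at 9.26 and Myo3a at 7.11. In cIHCs the order was Myo6 at 92.5, Myo7a at 76.7, Myo15 at 24.04, Myo3a at 16.2 and Myo1d at 7.23. The remaining 4 genes were under 0.4 in each group. Some neighbours in these orders overlapped widely from cell to cell. In OHCs Myo15 was above Myo6 in 19 of 32 cells, and Myo1d and Myo3a were each the higher in 15, with 2 ties. In cIHCs Myo6 was above Myo7a in 37 of 67 cells, Myo15 above Myo3a in 44, and Myo3a above Myo1d in 44, with 2 ties. With the longest transcript in place of all exons, the OHC order of Myo6 (194.0) and Myo15 (157.9) swapped.

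The place of Myo15 in that order was what separated the groups cell by cell. Myo15 exceeded Myo6 in 19 of 32 OHCs and in 1 of 67 cIHCs, and it exceeded Myo7a in 30 of 32 OHCs and in 4 of 67 cIHCs. It was the highest of the 9 myosins in 19 OHCs and in no cIHC; Myo6 was highest in 12 OHCs and 37 cIHCs, and Myo7a in 1 OHC and 30 cIHCs. Of the summed per-length level of the 9 genes, Myo15 made up 41.4% in OHCs and 11.04% in cIHCs. The share of Myo7a was 17.6% and 35.2%, that of Myo6 36.2% and 42.5%, that of Myo3a 2.02% and 7.42%, and that of Myo1d 2.63% and 3.32%. Shares add to a whole, so a lower share of Myo15 raises those of the others. These cell counts and shares rest on the length of all annotated exons and were not made with the longest transcript. With the latter, Myo6 stood above Myo15 in the summed OHCs, at 194.0 against 157.9.

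**Figure D3:**
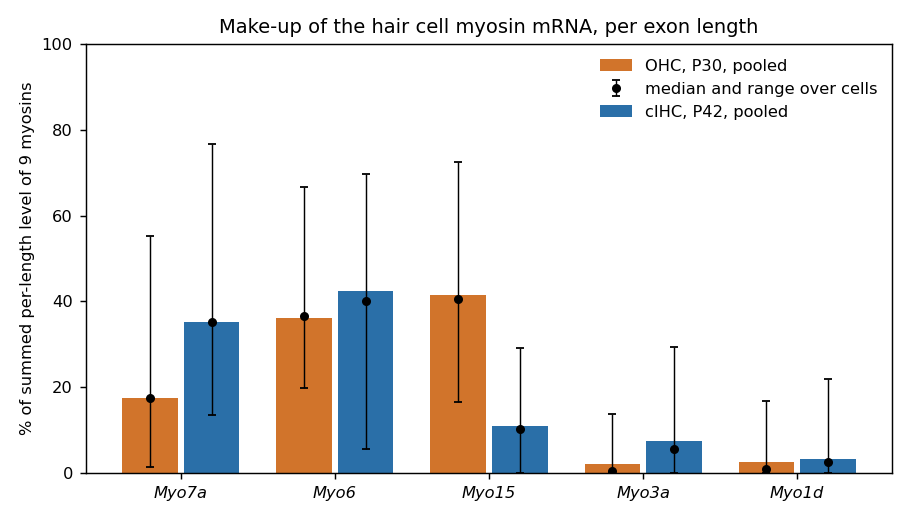
Share of each of the 5 most abundant myosins in the summed per-length level of all 9, in percent (bars: summed groups; points and lines: median and range over cells). Myo15 made up 41.4% in OHCs and 11.04% in cIHCs, Myo6 36.2% and 42.5%, and Myo7a 17.6% and 35.2%. Length is that of all annotated exons.

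How the 3 abundant myosins varied together across the cells of a group was described with Spearman correlations of log2(CPM + 1). These describe the cells, whose points share library preparation and depth. Myo6 and Myo15 had a rho of 0.50 over 67 cIHCs and 0.09 over 32 OHCs; in cIHCs it was 0.49 over the 55 cells with Xist reads and 0.84 over the 12 with Y-linked reads. Myo7a and Myo6 had a rho of 0.28 in cIHCs and -0.34 in OHCs. The difference between the groups was not tested.

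Tbx2 had a rho of -0.50 with Myo6, -0.48 with Myo15, -0.29 with Myo3a and -0.24 with Myo7a over the 67 cIHCs. Without the 2 cells farthest from the median of Tbx2 the first pair were -0.47 and -0.49, and Pearson's r over all cells was -0.44 and -0.38. Genes with reads per cell moved with the same myosins, with a rho of -0.44 for Myo6, -0.38 for Myo15 and -0.25 for Myo7a, and total counts had -0.39 with Myo15; their part was not tested. Otof, on the hair cell and inner hair cell marker lists, had a positive rho in cIHCs, 0.69 with Myo6 and 0.54 with Myo15. In OHCs these were 0.17 and 0.05. Slc17a8, also on the inner hair cell list, had only 0.10 with Myo6 and 0.08 with Myo15 in cIHCs. The OHC marker Ocm had 0.40 and 0.27 there, and the hair cell marker Gfi1 0.49 and 0.34.

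**Figure D4:**
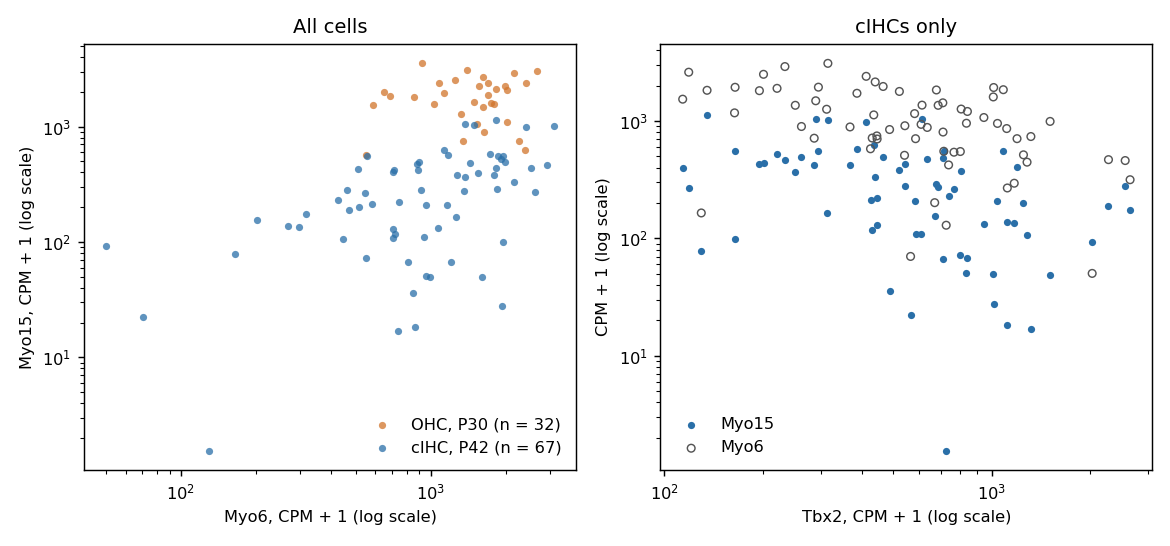
Left, Myo15 against Myo6 in each cell (CPM + 1, log scales; OHCs orange, cIHCs blue). Right, Myo15 (filled) and Myo6 (open) against Tbx2 in the 67 cIHCs; the rho was 0.50 for Myo15 with Myo6 in cIHCs, -0.48 for Myo15 with Tbx2 and -0.50 for Myo6 with Tbx2.

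The genes most like each abundant myosin, up to 3 each, were found by the same rho, among genes with a mean of 50 CPM or more and reads in 90% or more of the group's cells. In the 67 cIHCs, with 2834 candidates, these were Pkig (0.74), Gm6558 (0.73) and Hsd17b7 (0.71) for Myo6. They were Tmcc2 (0.62), Strbp (0.57) and Rbm24 (0.57) for Myo15, and Calb2 (0.48), Limd2 (0.48) and Cgn (0.47) for Myo7a. In the 32 OHCs, with 1340 candidates, they were Glrx5 (0.58) and Hdgfl2 (0.49) for Myo6, Rundc3a (0.54), Psmd6 (0.50) and Ctnnal1 (0.48) for Myo15, and Chst2 (0.55), Rps27l (0.50) and Tomm5 (0.49) for Myo7a. The median rho over all candidates lay between -0.027 (Myo6 in cIHCs) and 0.0003 (Myo6 in OHCs). Values picked as the highest of so many are high by selection, more so with fewer cells. How high unrelated genes would reach was not tested. All the genes named for cIHCs also had a negative rho with genes with reads per cell. It ran from -0.55 (Pkig) and -0.51 (Gm6558) for Myo6 partners to -0.27 (Hsd17b7). For the Myo15 partners Rbm24, Strbp and Tmcc2 it was -0.49, -0.49 and -0.35, and for the Myo7a partner Calb2 -0.39.

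The partners of these motors were examined by lists. Of the 4 genes of the elongation complex that MYO15A carries, all at 10 CPM or more, 3 were at least 2-fold higher in cIHCs and none was 2-fold lower, beside 26.3% and 14.3% of all genes, with a median log2 ratio of 1.18 beside 0.25. Whrn, the scaffold whirlin, had 11.7 and 90.4 CPM (2.95), with reads in 12 of 32 OHCs and 62 of 67 cIHCs. Gnai3 and Gpsm2, the G protein subunit and its partner that mark the tallest row, had 64.6 and 155.7 CPM (1.27) and 112.5 and 240.3 CPM (1.09). Eps8, the actin regulator, had 31.3 and 22.02 CPM (-0.51). Of the exons of Gpsm2, 5.19% are shared with Clcc1 on the other strand, and whether the counting used strand is not stated. Of the 3 genes of class III myosin cargo, all at 10 CPM or more, 1 was at least 2-fold higher and none lower, with a median of 0.92. That gene was Espnl (7.60 and 22.5 CPM, 1.57; 2.28 without the highest cells). Espn, the actin bundler espin, had 887.7 and 687.1 CPM (-0.37), and Morn4, which binds the class III tail, had 237.0 and 447.6 CPM (0.92).

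Of 12 MYO7A partners and Usher syndrome genes, 10 reached 10 CPM, 2 of them at least 2-fold higher and 3 at least 2-fold lower, with a median of -0.04; over all genes at that level these were 26.3%, 14.3% and 0.25. Adgrv1, the giant adhesion receptor of ankle links, had 24.4 and 94.3 CPM (1.95, and 2.59 without the highest cells), with reads in 13 of 32 OHCs and 64 of 67 cIHCs, and Ush1g, the scaffold SANS at the tip link, had 4.10 and 14.3 CPM (1.80). A single OHC held 62.3% of its OHC counts, and without the highest cells the ratio was 2.84. Pdzd7, a scaffold protein of the ankle links, had 73.7 and 5.13 CPM (-3.84), with reads in 25 of 32 OHCs and 11 of 67 cIHCs. Cdh23, the upper part of the tip link, had 402.9 and 123.4 CPM (-1.71), while Pcdh15, the lower part, had 104.7 and 90.4 CPM (-0.21). Ush1c, the scaffold harmonin, had 507.7 and 323.2 CPM (-0.65), Cib2, a subunit of the transduction channel complex, 4004 and 4371 CPM (0.13), and Twf2, an actin-capping partner of MYO7A, 419.1 and 706.1 CPM (0.75). Exons shared with a gene on the other strand make Pdzd7 (5.08%, Lzts2) and Cib2 (15.8%, Sh2d7) less certain.

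Of 11 MYO6 adaptors and proteins of the stereocilia taper, 9 reached 10 CPM; 4 were at least 2-fold higher, none was lower, and the median was 0.77, against 26.3%, 14.3% and 0.25 for all genes at 10 CPM. Ptprq, a membrane phosphatase at the base of the stereocilia, had 180.8 and 737.5 CPM (2.03), and the cIHC was higher in 94.9% of pairs. Tom1, an endosomal adaptor, had 24.6 and 117.8 CPM (2.26), the autophagy receptor Calcoco1 35.5 and 76.7 CPM (1.11), and Tprn, the taper protein taperin, 2.81 and 10.1 CPM (1.84). Rdx, the actin-membrane linker radixin, had 172.5 and 152.9 CPM (-0.17), and Tax1bp1 247.8 and 297.0 CPM (0.26). For Optn no reads were counted in either group.

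Of 11 partners of MYO5A and MYO10, 9 reached 10 CPM, with 1 at least 2-fold higher (26.3% of all genes), 1 lower (14.3%) and a median of 0.11 (0.25). Itgb1, the integrin beta subunit that MYO10 carries, had 10.4 and 21.7 CPM (1.06), with 57.8% of its OHC counts in 1 cell and a ratio of 2.08 without the highest cells, and Vasp, an actin polymerase of filopodia, 23.7 and 3.67 CPM (-2.69). The dynein light chains Dynll2, which MYO5A binds, and Dynll1 had 175.3 and 332.0 CPM (0.92, and 1.09 without the highest cells) and 124.2 and 175.2 CPM (0.50). The vesicle GTPases Rab11a and Rab3a had 508.4 and 465.7 CPM (-0.13) and 355.0 and 320.7 CPM (-0.15).

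Light chains steady the lever arm of these motors. Of 9 genes, 6 reached 10 CPM, none was 2-fold higher, 1 was lower and the median was 0.26, where all genes at that level gave 26.3%, 14.3% and 0.25. That one was Calml4, a calmodulin-like light chain, with 1955 and 847.5 CPM (-1.21): OHCs ranged from 966.7 to 3222 CPM and cIHCs from 62.7 to 1710 CPM, and the cIHC was higher in 4.06% of pairs. The calmodulin gene Calm2, a common light chain of unconventional myosins, had 7614 and 10222 CPM (0.42).

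Of 15 other unconventional myosins, 5 reached 10 CPM, with 1 at least 2-fold higher (26.3% of all genes), 2 lower (14.3%) and a median of -0.92 (0.25). Myo9a, a RhoGAP motor, had 3.27 and 43.4 CPM (3.73), with reads in 9 of 32 OHCs and 53 of 67 cIHCs; 1 OHC held 69.3% of its OHC counts, and without the highest cells the ratio was 5.29. Myo1h had 52.03 and 4.56 CPM (-3.51), with reads in 21 OHCs and 10 cIHCs, but 25.8% of its exons are shared with Kctd10 on the other strand. Myo18a had 26.8 and 12.7 CPM (-1.08) and Myo9b 28.97 and 15.3 CPM (-0.92). Of the 3 filament-forming non-muscle myosin heavy chains, only Myh10 reached 10 CPM, with 29.6 and 47.3 CPM (0.68, and 1.11 without the highest cells); Myh9 had 8.68 and 6.34 CPM (-0.45) and Myh14 2.79 and 1.05 CPM (-1.41). For Myh14 1 OHC held 74.2% of the OHC counts, and without the highest cells the ratio was -0.62.

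**Figure D5:**
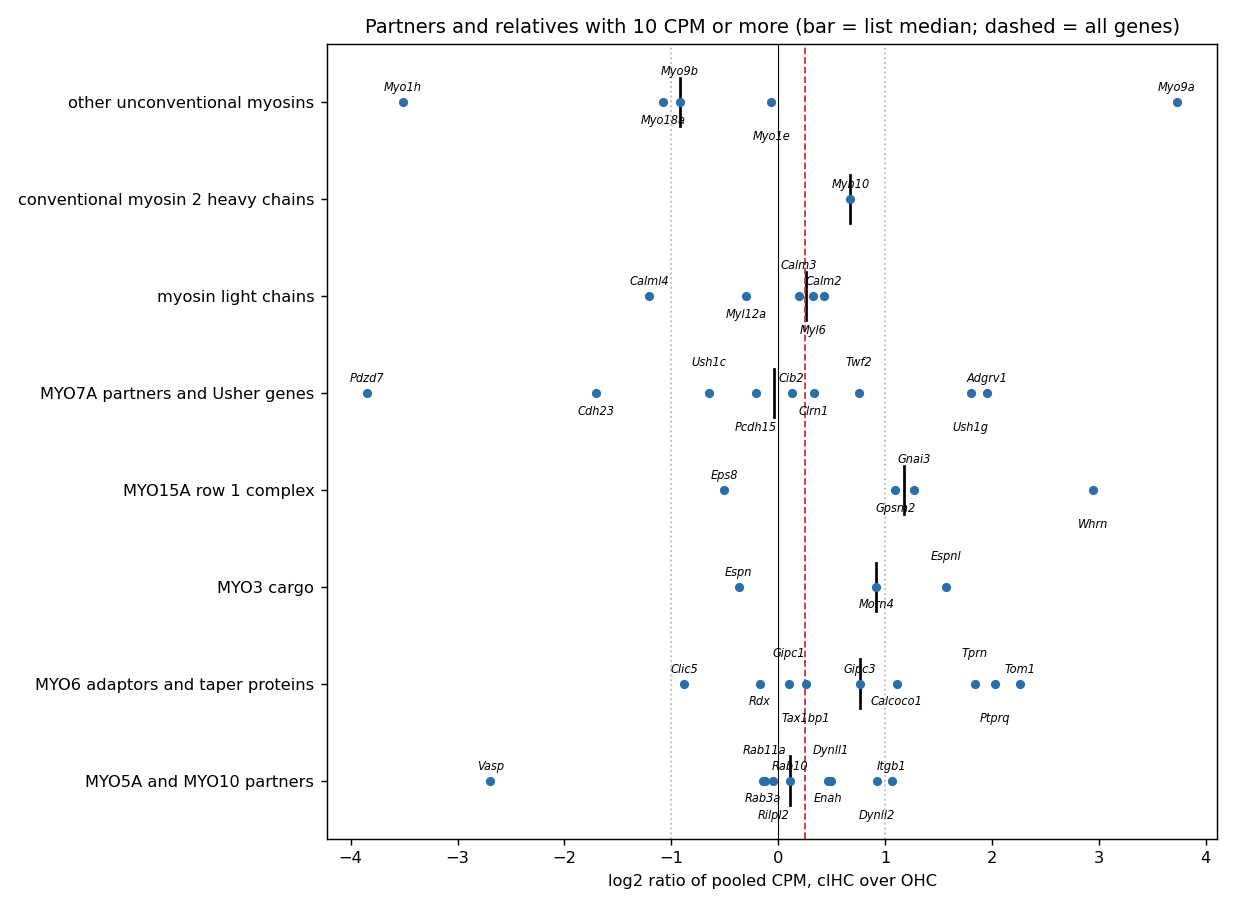
Log2 ratio of summed levels, cIHC over OHC, for the partners and relatives reported here of the 9 myosins with 10 CPM or more in 1 or both groups, by list (points: genes; bar: list median; dashed line: median of all genes, 0.25; dotted lines: 2-fold). Whrn, Gpsm2 and Gnai3 lie right of the 2-fold line, Eps8 at -0.51, and the Usher genes spread from -3.84 to 1.95.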

How the data were processed

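The authors deposited 1 table of raw counts per gene symbol and cell, with 0 columns of no sample; the unit was judged from its whole numbers and unequal totals. Per the submitters' processing notes, HISAT2 2.2.1, StringTie 2.2.1 and featureCounts 2.0.1 were used with mm10, with no role stated; strand use and annotation are not given in the sources used here. Per the labels' protocols, cDNA was made from picked cells with Smart-Seq HT and tagmented with TruePrep reagents.

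Columns were matched to cells by title. All 99 cells were used, with no filter on cells or doublets; 0 pairs of columns were identical. The 9 members, the partner lists and the markers were chosen with earlier results of these data known. Counts were summed per group, with exact conditional binomial intervals for ratios and exact Clopper-Pearson intervals for shares of cells. Where a group summed to 0, a floor of 3 counts took its place, and genes with both sums at or under 3 counts have no ratio. Exon lengths, loci and overlaps came from GENCODE M21 (GRCm38), which holds 96.4% of the symbols and need not be the authors' annotation. Partners named are the 3 most abundant of a list, up to 2 of its largest ratios among genes with 10 CPM and reads in 75% of the cells of the higher group, and genes singled out after their values were seen (Ush1g, Cdh23, Pcdh15, Eps8, Calcoco1, Tprn, Optn, Itgb1, Vasp, Myo18a, Myo15b). Some genes that count in a list or were picked by a rule are not reported here. Thinning to 5770000 reads left 29 OHCs and 66 cIHCs. TMM factors came from edgeR 4.0.16 in R 4.3.3, other steps from scipy 1.17.1, pandas 2.3.3, numpy 2.4.6 and matplotlib 3.10.9 under Python 3.11.15. On simulated counts for cIHCs against OHCs (9152 genes, 200 changed), the log2 ratio was recovered to within 0.5 for 96% of those changed. These were genes with a mean of 10 CPM or more, so Myo3b, Myo1c, Myo5a and Myo10 were not covered. Every gene was given the same form of spread between cells, and the simulated ratios were centred on their median, unlike those reported.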

Additional observations from a re-analysis of the deposited data

How the results depend on the processing

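Of the 12 other settings, none turned the sign of Myo7a, Myo6, Myo15, Myo3a, Myo3b or Myo5a. For the sparse genes Myo3b, Myo5a, Myo1c and Myo10, 10 to 11 settings could be computed. Not all of these could have turned a sign. TMM, median-of-ratios and totals without mitochondrial or the most abundant genes shift every gene alike, by -0.045 to -0.20. That is too little to turn the genes named first. Myo3b had 0 OHC counts throughout, so its sign was all but fixed. Myo15 was the only member at least 2-fold lower under each of the 12 settings. The number of members at least 2-fold higher, 3 from summed counts, was 1 by medians of single cells (which give a ratio for 5 members only), 5 without the highest cell of each gene and 5 in thinned cells; at 1.5-fold it was 3. The member median of 0.21 was -0.29 by means of CPM per cell (8 members), 1.31 without the highest cell of each gene, 1.10 in thinned cells, 0.59 in cells with Xist reads, 0.021 with TMM, 0.012 with median-of-ratios scaling and 0.66 without cells with 100 CPM or more of markers of other cell types, a setting chosen after seeing the data. Signs turned for Myo1c by means per cell (-0.22), for Myo1d by medians (0.67) and in cells with Y-linked reads (0.27), and for Myo10 without the highest cell (4.59), in cells with Xist reads (at least 3.64), in cells with Y-linked reads (1.23) and in thinned cells (5.43). The OHC with most Myo10 counts was outside the thinned cells and the cells with Xist reads, where OHCs held 9 and 0 Myo10 counts. It was among the cells with Y-linked reads, where OHCs held 563. The OHC with most Myo1c counts was also outside the thinned cells, where OHCs held 3 Myo1c counts. The part of these OHCs in the turns was not otherwise tested. Of 36 partners named, 6 moved by over 1.5-fold and 3 crossed 2-fold without their highest cells, a setting added after seeing the data; 0 turned sign. The median of all genes was shifted by -0.19 with TMM, -0.20 with median-of-ratios scaling and 0.39 in cells with Xist reads. No paired analysis was possible because a cell's number in its title is a running number and links no OHC to a cIHC. With no animal named, spread between animals is unknown; counts per symbol do not separate isoforms.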

Other observations

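Myo15b, a paralogue of Myo15 that lies outside the 9 genes and was looked at after its values were seen, differed in the opposite direction to Myo15. It had reads in 2 of 32 OHCs and 49 of 67 cIHCs, with medians of 0 and 23.2 CPM and highest levels of 124.4 and 347.6 CPM. Of the 818 counts in OHCs, 816 (99.8%) came from 1 cell, which leaves 2 without it. The summed levels of 3.38 and 56.2 CPM gave a log2 ratio of 4.06 (exact conditional binomial 95% interval 3.96 to 4.16), and 10 cIHCs lay above the highest OHC. Per exon length its summed level in cIHCs was 5.70 RPKM, against 24.04 for Myo15, so it did not reach the level of its relative there.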
